A study of Mus musculus with 31 samples.

Results

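The genes described here encode the digestive and acid-making machinery of the lysosome in mouse Ly6C-high monocytes. They are 30 listed genes for lysosomal hydrolases, lipid carriers, membrane proteins and transcription factors, together with every gene whose symbol starts with Atp6v (23 genes), so 53 of the 24411 entries of the count table. By role they were 5 genes for membrane proteins, 10 for glycosidases, 5 for sulfatases, 6 for lipid hydrolases, lipid carriers and activators, 24 for the vacuolar proton pump (V-ATPase; 13 for its V1 part and 11, Tcirg1 included, for its V0 part) and 3 for transcription factors. The rule that lists them uses no measured value, but the members were chosen with earlier results of these data known.

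RNA-seq was done on 9 libraries of Ly6C-hi monocytes of C57BL/6J mice. Of these, 3 were of blood monocytes of healthy mice (named healthy blood), 3 from the blood of mice carrying a subcutaneous Lewis lung carcinoma, a transplanted mouse tumor line abbreviated LLC (LLC blood), and 3 from such tumors (LLC tumor). All were sorted as CD11b+, Ly6G-, Ly6Chi and MHC-II-. The labels give no age or sex, and they do not say whether libraries came from separate mice or whether LLC blood and LLC tumor libraries share mice, so p-values measure the spread between these libraries, which may be technical. Libraries are numbered 1 to 3 in each group, and values are listed in that order.

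Lysosomal hydrolases are made in the endoplasmic reticulum, tagged with mannose 6-phosphate and carried to the lysosome, where they break down sugars, sulfated sugars and lipids at acid pH. The acid is supplied by the V-ATPase: its cytosolic V1 part splits ATP and turns the membrane-embedded V0 part, which moves protons into the lumen. TFEB, TFE3 and MITF are related transcription factors that bind E-box-type sequences, known as CLEAR elements, near the start of many of these genes. Monocytes use the system to digest what they take up, and it grows as they mature into macrophages.

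Total counts ranged from 10457492 to 20706412 per library. Levels are given as CPM (read counts brought to a common library size, with factors from the trimmed mean of M-values, TMM), the scale on which groups were tested. They are not corrected for gene length, so levels are compared between libraries and not between genes. LLC tumor 1 stood apart: its TMM factor was 0.798 against 0.968 to 1.07 in the other 8 libraries, and its counts differed from those of LLC tumor 2 and 3 by chi-square values of 48.3 and 38.0 per degree of freedom, against 6.93 between LLC tumor 2 and 3. On the TMM scale 36 of the 47 members tested were highest in LLC tumor 1 among the tumor libraries, as were 44.9% of all genes tested. On library totals the count was 21 of 47, with 21.1% of all genes. Leaving it out added calls for 6 members against LLC blood (Lamp1, Asah1, Gm2a, Mcoln1, Atp6v0b, Atp6v1b2) and for 9 against healthy blood (Lamp1, Fuca1, Galns, Asah1, Npc2, Gm2a, Scarb2, Atp6v0e, Atp6v1f), and Lamp2 lost its call against healthy blood.

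Markers of the sorted cells (Itgam, Ly6c1, Ly6c2, Ccr2, Csf1r, Cd14) summed to between 6057 and 6536 CPM in the blood libraries and 7249 to 11460 CPM in the tumor libraries, but these genes moved apart. Ly6c2, which encodes the antigen of the gate, was at 1031 to 1673 CPM in blood and 273 to 592 CPM in LLC tumor, while Itgam was at 865 to 1431 and 3302 to 4663 CPM and Cd14 at 39.5 to 50.5 and 1381 to 2519 CPM. The 4 MHC class II genes, which the gate should remove, still summed to 315 to 1602 CPM over the 9 libraries. Of 5 fibroblast genes all were detected, and they summed to 1069 to 3816 CPM in LLC tumor, 386 CPM in LLC blood 1 and at most 14.5 CPM in the other blood libraries. The 10 mature macrophage genes summed to 2257 to 4035 CPM in LLC tumor, 1078 to 1138 CPM in LLC blood and 1657 to 1961 CPM in healthy blood. These genes did not move alike. C1qa was at 1.3 to 10.4 CPM in blood and 141 to 246 CPM in LLC tumor, and Mrc1 at 5.89 to 25.6 and 292 to 497 CPM. C1qb, C1qc, Mertk, Cd68 and Gpnmb were also higher in every tumor library than in every blood library. Apoe overlapped with healthy blood, Trem2 overlapped with LLC blood, and Adgre1 was lower in every tumor library. Of 10 listed T and NK cell genes, 8 were in the table, and they summed to 171 to 461 CPM in healthy blood and at most 40.9 CPM elsewhere. Of the 5 epithelial genes, Epcam and Krt19 had at most 3 counts in every library, while the list summed to 78.0 to 101.5 CPM in LLC tumor and at most 2.64 CPM in blood. The 4 endothelial genes, with Emcn at 3 counts or fewer, summed to 50.4 to 87.0 CPM in LLC tumor and at most 18.1 CPM in blood. Further lists had lower sums in LLC tumor than in blood. Ly6C-low monocyte genes summed to 707 to 1152 CPM against 1249 to 1783 CPM. Ace, Spn, Treml4 and Pparg were lower in every tumor library. Nr4a1 overlapped (468 to 753 against 264 to 514 CPM). Cd36 was higher in LLC tumor (27.6 to 61.8 CPM) than in LLC blood (5.97 to 8.82 CPM). Neutrophil genes summed to 210 to 353 CPM against 491 to 880 CPM. Csf3r was the largest part (143 to 171 against 463 to 524 CPM). S100a8 was at 29.1 to 112 CPM in LLC tumor, 47.5 to 203 CPM in LLC blood and 2.84 to 59.1 CPM in healthy blood. S100a9 also overlapped between LLC tumor and each blood group. Erythroid genes summed to 1.36 to 3.46 CPM against 160.1 to 862 CPM, and B cell genes to at most 2.04 CPM against 9.73 to 152 CPM. Dendritic cell genes summed to 67.8 to 82.3 CPM in healthy blood, 22.8 to 37.3 CPM in LLC blood and 6.79 to 8.53 CPM in LLC tumor. Platelet genes summed to 143 to 278 CPM in LLC tumor and at most 18.9 CPM in blood, but only Pf4 and Ppbp rose. Both were at 68.3 to 139 CPM in LLC tumor and at most 6.64 CPM in blood. Itga2b was at 0.905 to 1.78 CPM in LLC tumor and 1.27 to 5.58 CPM in blood. Gp9 and Gp1bb were at most 0.536 CPM in LLC tumor and at most 1.31 CPM in blood. The sums of these lists moved with the groups compared below, and their part in the results was not tested. In sorted bulk libraries a change in which cells were collected and a change in RNA per cell cannot be told apart.

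Of the 53 members, 47 passed the filter on low counts. The 6 that did not were all V-ATPase genes: Atp6v0a4, Atp6v1b1, Atp6v1c2 and Atp6v1e2 had at most 1 count in any library, Atp6v1g3 had 0 in all 9, and Atp6v0e2 reached 6 counts in LLC tumor 3. These are forms of the pump subunits known mainly from kidney, testis, brain or other specialized tissues. A gene was called changed at an adjusted p under 0.05 over the 12337 genes tested.

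Among the members, more hydrolase genes were lower than higher in LLC tumor against LLC blood, and more proton pump genes were higher than lower. The pump split lay mainly in the V1 part (6 of 9 higher, against 3 of 9 in V0). The fall was not shared by 23 further lysosomal hydrolases and activators (9 higher, 9 lower) or by 13 cathepsins (6 higher, 1 lower). Few members differed between the blood groups. Between LLC blood and healthy blood 5 of 47 members were called, 4 higher and 1 lower, which is 10.6% of members against 23.6% of all genes tested (14.0% higher, 9.61% lower). Between LLC tumor and LLC blood 29 were called, 14 higher and 15 lower, which at 61.7% is close to the 61.3% of all genes. Of the 26 hydrolases, carriers and membrane proteins, 4 rose and 12 fell in LLC tumor, with a median log2 fold change of -0.25. Of the 18 V-ATPase genes tested, 9 rose and 2 fell, with a median of 0.35, and over all genes tested 29.6% rose and 31.7% fell with a median of -0.03. LLC tumor against healthy blood gave 29 called members, 14 higher and 15 lower, beside 66.5% of all genes (33.5% higher, 33.0% lower). Each group enters 2 of the 3 comparisons, so their results are not independent of each other.

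Counting members whose libraries did not overlap between groups gave 10 higher and 9 lower in LLC blood against healthy blood, where 51.8% of all genes did not overlap (25.7% higher, 26.1% lower). For LLC tumor against LLC blood it gave 14 higher and 14 lower, beside 31.3% and 34.5% of all genes, and against healthy blood 14 higher and 15 lower, beside 34.4% and 35.3%. In none of these did the members' share exceed that of all genes.

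**Figure D1:**
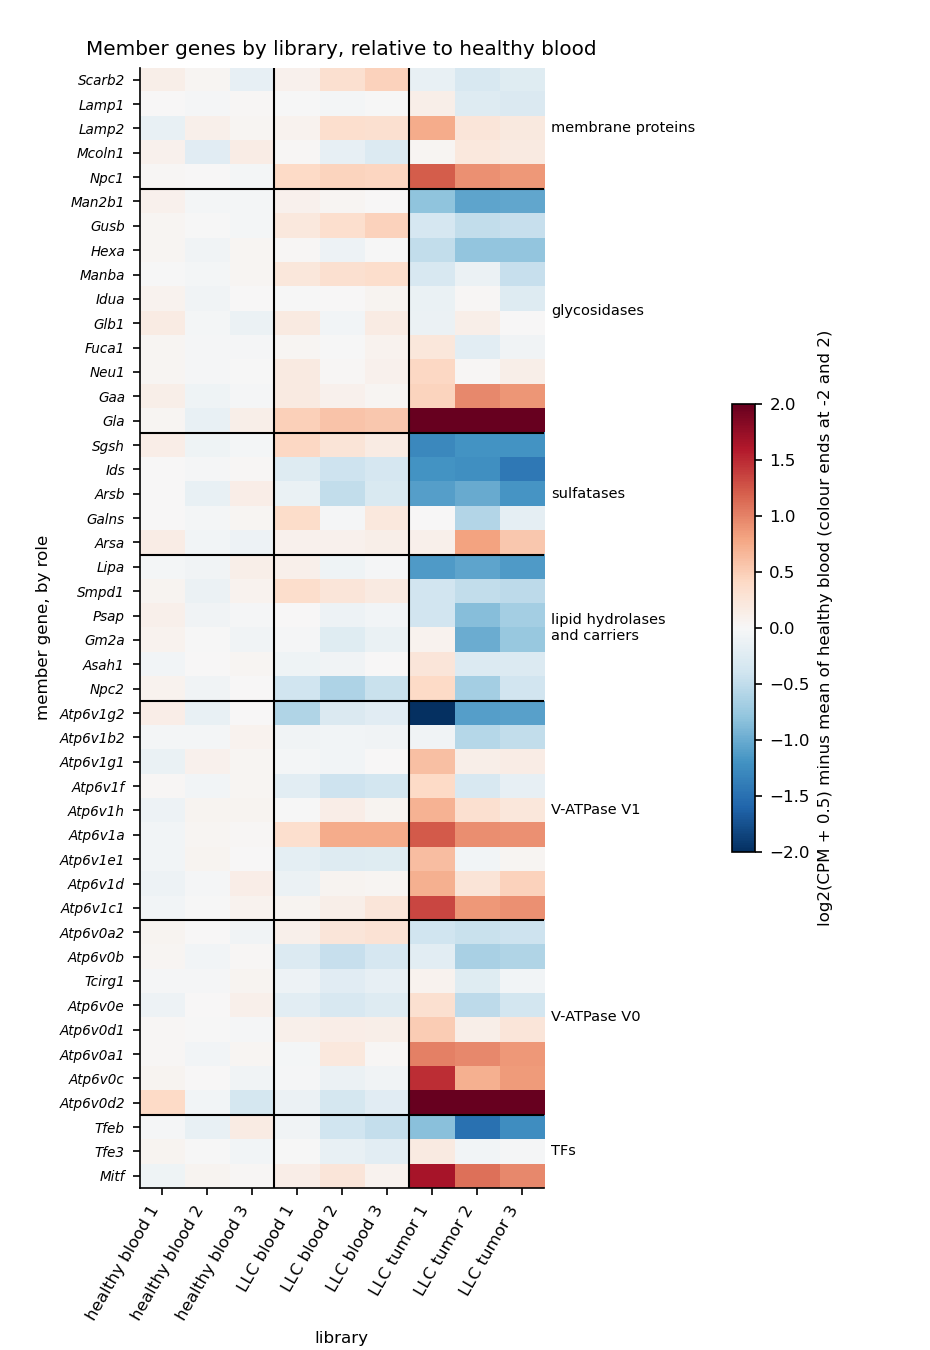
Heat map of 46 tested members (rows, grouped by role) in 9 libraries (columns, 3 per group), as log2(CPM + 0.5) minus the mean of the healthy blood libraries, with colour ending at -2 and 2. Most blue tiles of the tumor columns lie among sulfatases, glycosidases and lipid hydrolases, and the V-ATPase rows hold many of the red ones; LLC tumor 1 is redder than LLC tumor 2 and 3 in many rows.

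These splits depended in part on single libraries and on scaling. Without LLC tumor 1, 5 hydrolases, carriers and membrane proteins rose and 15 fell, while 9 V-ATPase genes rose and 4 fell (median 0.19), beside 34.3% of all genes higher and 32.8% lower. Without LLC blood 1 only 5 V-ATPase genes were called higher, with 2 lower (median 0.31), beside 28.5% and 29.5% of all genes. On library totals, which moved the median of all genes to -0.23, 10 members were higher and 22 lower, beside 23.2% and 40.6% of all genes: 6 V-ATPase genes were higher and 4 lower, and 3 hydrolases, carriers and membrane proteins were higher and 17 lower.

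Summed levels rest on the most abundant genes. V-ATPase members summed to 2755, 2773 and 2848 CPM (healthy blood), 2694, 2693 and 2741 CPM (LLC blood) and 4144, 2909 and 3105 CPM (LLC tumor), so every tumor library was above every blood library. Without Atp6v0c, whose counts are in part uncertain, the sums were 2323 to 2489 CPM in blood and 3095, 2291 and 2423 CPM in LLC tumor. LLC tumor 2 then lay below every blood library and LLC tumor 1 above all of them, so the sum of the other pump genes overlapped between groups. The 5 sulfatases summed to 371, 346 and 364 CPM (healthy blood), 370.1, 321 and 340 CPM (LLC blood) and 225, 236 and 225 CPM (LLC tumor). Glycosidases summed to between 1707 and 1885 CPM in the blood libraries and between 1246 and 1533 in LLC tumor. Man2b1 alone gave 737 to 806 CPM of that sum in blood and 367 to 434 CPM in LLC tumor. Without Man2b1 the glycosidase sum of LLC tumor 1 lay within the blood range, and those of LLC tumor 2 and 3 below it. As a share of all reads the 53 members took 2.03% to 2.18% in healthy blood, 2.03% to 2.11% in LLC blood and 1.39% to 1.58% in LLC tumor. On the TMM scale they summed to 19005 to 21119 CPM in blood and 19783, 13889 and 15034 CPM in LLC tumor. LLC tumor 1 thus lay within the blood range on that scale. Psap, the precursor of the saposins, alone held 49.8% to 52.3% of member reads in the blood libraries and 39.7% to 42.5% in LLC tumor. Without Psap the members summed to 9376.5 to 10082 CPM in blood and 11923, 8212 and 8647 CPM in LLC tumor. LLC tumor 1 then lay above every blood library and LLC tumor 2 and 3 below. Read shares also depend on transcript length.

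Promoter sequences show a feature that the rule did not use. RefSeq windows (GRCm38.p6) of 300 bases, 250 before and 50 after each annotated start site, were matched by symbol to 43 of the 53 members. The E-box core CACGTG, which reads the same on both strands, was present in 11 of the 43 (25.6%), against 8.09% of 27025 genes with a window. TCACGTG, searched on both strands and containing that core, was found in the same 11 members and in 4.29% of all genes. The palindrome TCACGTGA was found in 5 members (11.6%), namely Gla, Mcoln1, Atp6v1a, Atp6v0d1 and Atp6v0e, against 1.12% of all genes. A longer palindrome of 10 bases around the same core was found in 0 of 43 members and 0.370% of all genes. These shares of all genes are over the 27025 with a window, which include genes not tested here. Shares among tested genes only were not computed. The other members with the core were Lamp1, Glb1, Gaa, Sgsh, Arsa and Atp6v0b. With LLC tumor set against LLC blood, 4 of the 11 were called higher (Gla, Gaa, Arsa, Atp6v1a), 1 lower (Sgsh) and 6 were not called. Mcoln1 was also called higher without LLC tumor 1, and Lamp1 and Atp6v0b lower. Among the 26 tested members whose window lacks the core, 5 were higher, 12 lower and 9 not called. The 10 members with no matched window had 5 higher, 2 lower and 3 not called. Median log2 fold changes were 0.18 with the core, -0.25 without it and 0.35 with no matched window. Over all genes tested 29.6% were higher and 31.7% lower. A match is a description of the letters and not evidence of binding.

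The 250 bases before the start site are given for 5 members that carry the core and behaved differently: Gla and Atp6v1a rose in LLC tumor, Sgsh fell, and Lamp1 and Mcoln1 were not called with all libraries, although without LLC tumor 1 Lamp1 was called lower and Mcoln1 higher. Each runs 5′ to 3′ along the gene, with the core in capitals.
Gla (chrX:134601006-134601255, minus strand): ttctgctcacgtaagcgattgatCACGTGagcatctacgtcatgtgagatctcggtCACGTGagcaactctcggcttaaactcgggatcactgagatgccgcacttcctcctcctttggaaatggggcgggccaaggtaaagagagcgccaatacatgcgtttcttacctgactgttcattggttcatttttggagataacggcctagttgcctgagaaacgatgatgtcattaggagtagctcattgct
Atp6v1a (chr16:44139260-44139509, minus strand): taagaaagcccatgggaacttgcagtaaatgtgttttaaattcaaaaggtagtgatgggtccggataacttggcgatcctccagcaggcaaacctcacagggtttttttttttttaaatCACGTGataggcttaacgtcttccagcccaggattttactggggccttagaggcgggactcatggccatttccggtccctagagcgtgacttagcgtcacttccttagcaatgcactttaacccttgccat
Sgsh (chr11:119355511-119355760, minus strand): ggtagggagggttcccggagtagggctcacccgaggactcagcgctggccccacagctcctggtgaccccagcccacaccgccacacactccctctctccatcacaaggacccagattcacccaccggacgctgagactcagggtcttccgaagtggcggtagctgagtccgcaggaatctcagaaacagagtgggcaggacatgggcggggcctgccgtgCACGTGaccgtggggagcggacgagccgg
Lamp1 (chr8:13158911-13159160, plus strand): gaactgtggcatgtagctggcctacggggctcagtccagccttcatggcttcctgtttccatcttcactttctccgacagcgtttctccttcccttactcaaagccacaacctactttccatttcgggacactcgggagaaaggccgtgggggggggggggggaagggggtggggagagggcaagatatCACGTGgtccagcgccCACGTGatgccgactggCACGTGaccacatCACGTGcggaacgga
Mcoln1 (chr8:3500269-3500518, plus strand): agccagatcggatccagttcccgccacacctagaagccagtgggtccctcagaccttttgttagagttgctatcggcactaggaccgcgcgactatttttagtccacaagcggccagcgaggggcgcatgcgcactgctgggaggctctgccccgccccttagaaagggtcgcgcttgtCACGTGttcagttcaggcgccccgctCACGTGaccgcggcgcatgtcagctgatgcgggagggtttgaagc
Lamp1 carries 4 cores within the 61 bases before its start, Gla 2 cores starting 227 and 194 bases upstream, and Mcoln1 2 cores starting 71 and 45 bases upstream. Sgsh has 1 core 29 bases upstream and Atp6v1a 1 core 131 bases upstream. Number and position of cores thus varied among these 5 members.

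**Figure D2:**
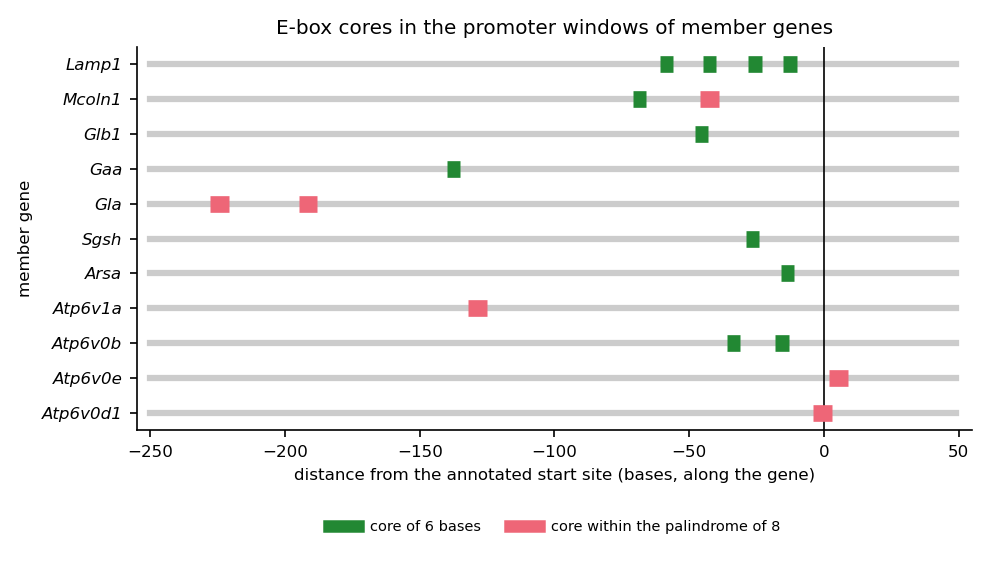
Map of the E-box core in the promoter windows of the 11 members that hold it, with distance from the annotated start site in bases on the x axis and 1 gene per line. Green blocks are the core of 6 bases and red blocks the core inside the palindrome of 8; Lamp1 has 4 blocks, and Gla has 2, both red.

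Among the lysosomal membrane proteins, Npc1 stood higher in LLC blood and higher again in LLC tumor. NPC1 exports cholesterol from the lysosome together with the soluble carrier NPC2. Npc1 was at 100.3, 99.8 and 96.5 CPM (healthy blood), 130, 135 and 134 CPM (LLC blood) and 229, 187 and 181 CPM (LLC tumor), with no overlap between any 2 groups. Its log2 fold change was 0.43 ± 0.09 (SE; adjusted p = 0.00953) in LLC blood against healthy blood and 0.58 ± 0.09 (SE; adjusted p = 0.000409) in LLC tumor against LLC blood. The blood call was lost without healthy blood 2. Npc1 counts were not whole numbers in any library, as happens when reads are split between entries, and its level is uncertain to that extent. Npc2, by contrast, had 1388, 1266 and 1330.2 CPM (healthy blood), 1005, 863 and 971 CPM (LLC blood) and 1746, 826 and 1023 CPM (LLC tumor), and it was called in none of the 3 comparisons with all libraries. Npc2 was called lower than in healthy blood without LLC tumor 1, with a log2 fold change of -0.55 (adjusted p = 0.00124) against -0.15 with it, and its difference from LLC blood went from 0.34 to -0.01 (adjusted p = 0.946). Without LLC tumor 2, the lowest tumor library, it was called higher than in LLC blood at 0.55 (adjusted p = 0.0396).

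Lamp1 and Lamp2, the main glycoproteins of the lysosomal membrane, were not called between LLC tumor and LLC blood with all libraries. Lamp1 was at 1171, 1152 and 1182 CPM (healthy blood), 1159, 1132 and 1162 CPM (LLC blood) and 1273, 976 and 958 CPM (LLC tumor) and was not called in any comparison. It was called lower without LLC tumor 1, with log2 fold changes of -0.22 (adjusted p = 0.00663) against LLC blood and -0.30 (adjusted p = 0.00119) against healthy blood, where all libraries gave -0.11 and -0.13. Lamp2 was at 438, 524 and 502 CPM (healthy blood), 512, 613 and 605 CPM (LLC blood) and 812, 579 and 557 CPM (LLC tumor). It was called only against healthy blood, with a log2 fold change in LLC tumor of 0.41 ± 0.15 (SE; adjusted p = 0.0394), and without LLC tumor 1 that value was 0.19 (adjusted p = 0.0861). The call was also lost without any 1 healthy blood library, LLC blood 2 or LLC blood 3. Scarb2, the receptor that carries glucocerebrosidase to the lysosome, fell in LLC tumor against LLC blood by 0.53 ± 0.11 on the log2 scale (adjusted p = 0.00239). Mcoln1, a calcium channel of the lysosome, was not called (32.6, 37.0 and 36.1 CPM in LLC tumor, 32.5, 28.3 and 26.1 in LLC blood). The log2 fold change of 0.29 (adjusted p = 0.0697) became 0.37 (adjusted p = 0.0342) without LLC tumor 1, and it was also called higher without LLC blood 1 or healthy blood 2.

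Glycosidases remove sugars from glycoproteins, glycolipids and glycogen. Of these 10 genes, 2 rose and 4 fell in LLC tumor against LLC blood, beside 29.6% and 31.7% of all genes. Gla, which encodes α-galactosidase A, the enzyme lacking in Fabry disease, was at 14.7, 12.7 and 15.4 CPM (healthy blood), 19.9, 21.3 and 20.8 CPM (LLC blood) and 226, 96.5 and 114 CPM (LLC tumor). All tumor libraries were above all blood libraries, and LLC tumor 1 was about as high as the other tumor libraries together. Its log2 fold change was 2.81 ± 0.29 (SE; adjusted p = 2.95e-05) against LLC blood, a ratio of mean CPM of 7.02. Without LLC tumor 1 the log2 fold change was 2.37 (adjusted p = 7.54e-08). In blood the groups did not overlap either, but the log2 fold change of 0.54 ± 0.29 (SE; adjusted p = 0.206) was not called; 51.8% of all genes tested had no overlap in that comparison.

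Gaa, acid α-glucosidase, the glycogen-degrading enzyme of the lysosome, was at 46.5, 40.1 and 41.9 CPM (healthy blood), 48.4, 45.2 and 43.8 CPM (LLC blood) and 58.5, 83.8 and 79.5 CPM (LLC tumor). It rose in LLC tumor by a log2 fold change of 0.69 ± 0.13 (SE; adjusted p = 0.00129), and unlike most members LLC tumor 1 was the lowest of the tumor libraries. Gaa and Gla carry out different steps and both belong to the 11 members with an E-box core.

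Man2b1, lysosomal α-mannosidase, fell to about 0.5 times its blood level. It was at 806, 742 and 737 CPM (healthy blood), 805, 782 and 768 CPM (LLC blood) and 434, 367 and 371 CPM (LLC tumor), all tumor values lying below all blood values. The log2 fold change was -1.01 ± 0.09 (SE; adjusted p = 1.76e-05) against LLC blood and 0.04 between the blood groups (adjusted p = 0.777). Hexa, the α subunit of β-hexosaminidase, fell by 0.66 ± 0.10 on the log2 scale (adjusted p = 0.000359).

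Gusb and Manba were higher in LLC blood and then lower in LLC tumor than in either blood group. Gusb, β-glucuronidase, was at 209, 202 and 197 CPM (healthy blood), 235, 255 and 278 CPM (LLC blood) and 161, 144 and 147 CPM (LLC tumor). Its log2 fold change was 0.34 ± 0.08 (SE; adjusted p = 0.0166) in blood and -0.76 ± 0.08 (SE; adjusted p = 4.09e-05) in LLC tumor against LLC blood. Manba, β-mannosidase, was at 63.5, 61.9 and 65.5 CPM (healthy blood), 74.3, 79.5 and 81.4 CPM (LLC blood) and 50.8, 58.5 and 46.0 CPM (LLC tumor). Its log2 fold change was 0.30 ± 0.09 (SE; adjusted p = 0.0409) in blood and -0.60 ± 0.09 (SE; adjusted p = 0.000404) in LLC tumor against LLC blood. Since both comparisons use the LLC blood libraries, high values there push the 2 changes in opposite directions; against healthy blood Gusb and Manba were also lower in LLC tumor (-0.43 and -0.30). The blood call of Gusb was lost without any 1 of healthy blood 2, healthy blood 3, LLC blood 2 or LLC blood 3, and that of Manba also without healthy blood 1. Neu1, Glb1, Fuca1 and Idua, which act on sialic acid, galactose, fucose and iduronic acid, were not called in any comparison with all libraries, with log2 fold changes from -0.14 to 0.09 in LLC tumor against LLC blood. Against healthy blood Fuca1 was called lower without LLC tumor 1, at -0.17 (adjusted p = 0.0393), and Neu1 higher without LLC tumor 2, at 0.27 (adjusted p = 0.0333).

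**Figure D3:**
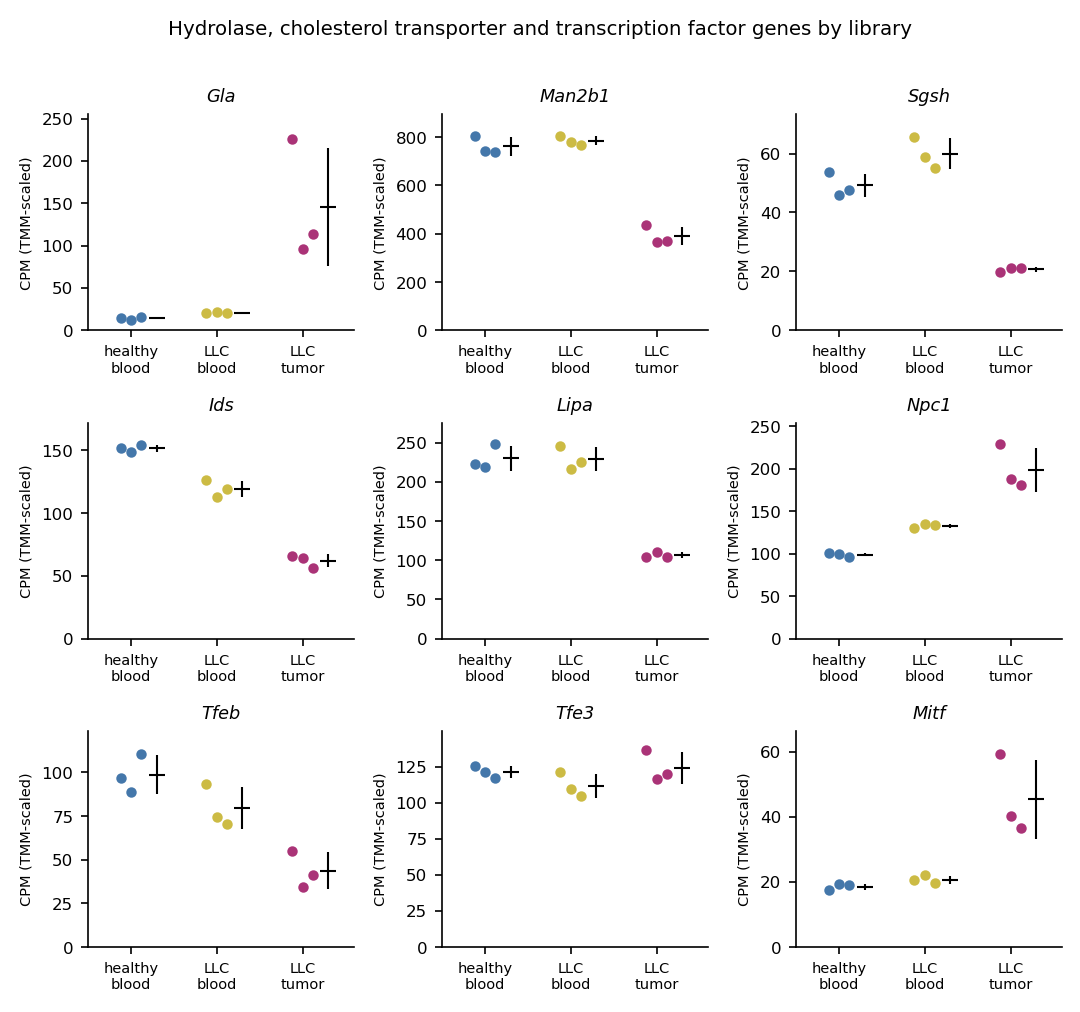
Level in CPM scaled by TMM (y axis, from 0) of 9 members in each library (points) by group (x axis), with the mean (bar) and SD (line) of 3 libraries. Gla and Mitf lie highest in LLC tumor; Man2b1, Sgsh, Ids, Lipa and Tfeb lie lowest there, and Npc1 steps up from healthy blood to LLC blood to LLC tumor.

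Sulfatases and related enzymes release sulfate from glycosaminoglycans and sulfated lipids. Of the 5, 4 fell in LLC tumor against LLC blood, beside 31.7% of all genes. Sgsh, which degrades heparan sulfate, was at 53.7, 46.0 and 47.8 CPM (healthy blood), 65.6, 58.9 and 55.2 CPM (LLC blood) and 19.8, 21.2 and 21.2 CPM (LLC tumor). Its log2 fold change of -1.53 ± 0.10 (SE; adjusted p = 1.63e-06) was the most negative among the 47 members in this comparison, a 2.88-fold lower level; its counts were not whole numbers in 6 libraries. Ids, iduronate-2-sulfatase, was the only member lower at both steps. Its levels were 152, 149 and 154 CPM (healthy blood), 126, 113 and 119 CPM (LLC blood) and 65.9, 64.3 and 56.1 CPM (LLC tumor), with no overlap between any 2 groups. The log2 fold change was -0.34 ± 0.08 (SE; adjusted p = 0.0119) in blood and -0.95 ± 0.08 (SE; adjusted p = 8.27e-06) in LLC tumor against LLC blood. The blood call was lost without healthy blood 3, LLC blood 2 or LLC blood 3.

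Arsb, which acts on dermatan and chondroitin sulfate, was at 45.2, 40.4 and 49.2 CPM (healthy blood), 41.0, 31.8 and 36.1 CPM (LLC blood) and 20.6, 22.0 and 19.4 CPM (LLC tumor). It fell in LLC tumor by 0.81 ± 0.12 on the log2 scale (adjusted p = 0.000267), every tumor library lying below every blood library. Galns was lower by 0.43 ± 0.15 (adjusted p = 0.0284), but its libraries overlapped and without LLC tumor 2 the value was -0.28 (adjusted p = 0.0708). The call was also lost without LLC tumor 3, LLC blood 1, LLC blood 3 or healthy blood 2.

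Arsa, arylsulfatase A, which degrades sulfatide, was the 1 sulfatase called higher in LLC tumor. Its levels were 52.7, 45.7 and 43.9 CPM (healthy blood), 50.1, 50.5 and 51.2 CPM (LLC blood) and 51.0, 83.1 and 69.3 CPM (LLC tumor), and LLC tumor 1 lay within the range of the blood libraries. The log2 fold change against LLC blood was 0.42 ± 0.15 (SE; adjusted p = 0.0375). Without LLC tumor 2 it was 0.25 (adjusted p = 0.139). The call was also lost without healthy blood 3, LLC tumor 3 or any 1 LLC blood library.

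Among genes for lipid breakdown, 3 of 6 fell in LLC tumor against LLC blood and 0 rose, beside 31.7% and 29.6% of all genes. Lipa, lysosomal acid lipase, which frees cholesterol from its esters, was at 223, 219 and 248 CPM (healthy blood), 246, 216 and 225 CPM (LLC blood) and 104, 111 and 104 CPM (LLC tumor). The tumor libraries were close together and far below blood, with a log2 fold change of -1.11 ± 0.08 (SE; adjusted p = 3.58e-06). Npc1 and Lipa, which act one after the other on lysosomal cholesterol, thus moved in opposite directions in the same libraries. Smpd1, acid sphingomyelinase, fell by 0.74 ± 0.09 on the log2 scale (adjusted p = 9.98e-05). Psap was at 11037, 9752 and 10089.9 CPM (healthy blood), 10375, 9628 and 9867 CPM (LLC blood) and 7860, 5677 and 6387 CPM (LLC tumor). It fell by 0.58 ± 0.15 (adjusted p = 0.00783), and LLC tumor 1 was the nearest to blood. Gm2a, the GM2 activator, had 974, 468 and 549.7 CPM in LLC tumor against 913, 779.8 and 847 in LLC blood and was not called, with a log2 fold change of -0.35. It was called lower without LLC tumor 1, at -0.71 (adjusted p = 0.000201) against LLC blood and -0.89 (adjusted p = 3.99e-05) against healthy blood. Asah1, acid ceramidase, was not called either (log2 fold change -0.03, adjusted p = 0.842), and was called lower without LLC tumor 1, at -0.20 (adjusted p = 0.0136) against LLC blood and -0.30 (adjusted p = 0.00127) against healthy blood.

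In the V1 part of the proton pump, 6 of 9 tested genes rose in LLC tumor against LLC blood and 1 fell. Over all genes 29.6% rose and 31.7% fell. Atp6v1a, the catalytic A subunit that splits ATP, was at 161, 173 and 171 CPM (healthy blood), 212, 280.2 and 282 CPM (LLC blood) and 394, 321 and 318 CPM (LLC tumor). It was higher in every LLC blood library than in every healthy one, and higher again in every tumor library. The log2 fold change was 0.62 ± 0.13 (SE; adjusted p = 0.00828) in blood, and this was the only blood call of a member that held in all alternatives with a 0.05 threshold and no fold limit. In LLC tumor against LLC blood it was 0.42 ± 0.13 (SE; adjusted p = 0.0179), and without LLC blood 1, the lowest LLC blood library, 0.27 (adjusted p = 0.0618).

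Atp6v1b2, the B subunit that pairs with A in the same ring, did not follow it. Its levels were 524, 522 and 563 CPM (healthy blood), 512, 518 and 509 CPM (LLC blood) and 513, 360.4 and 382 CPM (LLC tumor). In LLC tumor against LLC blood its log2 fold change was -0.29 ± 0.13 (SE; adjusted p = 0.071), with LLC tumor 1 inside the blood range and the other tumor libraries below it. This difference was called without LLC tumor 1, at -0.44 (adjusted p = 0.000178). Against healthy blood it was lower by 0.36 ± 0.13 (adjusted p = 0.0317); without LLC tumor 1 that value was -0.56, and the call was lost without healthy blood 1, healthy blood 3, LLC tumor 2 or LLC tumor 3.

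Atp6v1c1, the C subunit that links V1 to V0, was at 54.5, 56.3 and 59.6 CPM (healthy blood), 59.0, 61.7 and 67.3 CPM (LLC blood) and 144, 104 and 107 CPM (LLC tumor) and rose by a log2 fold change of 0.92 ± 0.12 (SE; adjusted p = 0.000171), or 0.78 without LLC tumor 1. Smaller increases were measured for Atp6v1d (0.49, adjusted p = 0.00533), part of the central rotor, and for Atp6v1h (0.37, adjusted p = 0.0206), which regulates ATP use. The Atp6v1h call was lost without LLC blood 1 or LLC blood 3.

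Subunits E and G form the stalks that hold V1 in place. Atp6v1e1 was at 148, 159 and 155 CPM (healthy blood), 135, 129 and 129 CPM (LLC blood) and 237, 149 and 158 CPM (LLC tumor) and Atp6v1g1 at 109, 126 and 123 CPM (healthy blood), 116, 114 and 119.8 CPM (LLC blood) and 181, 129 and 131 CPM (LLC tumor). In both, LLC tumor 1 lay far above LLC tumor 2 and 3. Their log2 fold changes against LLC blood were 0.47 ± 0.15 (SE; adjusted p = 0.0241) and 0.33 ± 0.13 (SE; adjusted p = 0.0457). Without LLC tumor 1 they were 0.26 (adjusted p = 0.00422) and 0.18 (adjusted p = 0.0401). Without any 1 LLC blood library both calls were lost, and that of Atp6v1g1 also without healthy blood 1 or healthy blood 3. Atp6v1g2, the other G gene, was at 4.43, 3.56 and 4.04 CPM (healthy blood), 2.46, 3.18 and 3.34 CPM (LLC blood) and 0.566, 1.6 and 1.61 CPM (LLC tumor), and fell by 1.23 ± 0.36 on the log2 scale (adjusted p = 0.0141). Atp6v1f (132, 79.8 and 89.6 CPM in LLC tumor) was not called with all 9 libraries, and without LLC tumor 1 it was called lower than in healthy blood (log2 fold change -0.27). Against LLC blood it was called higher without LLC tumor 2, at 0.48 (adjusted p = 0.0219).

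**Figure D4:**
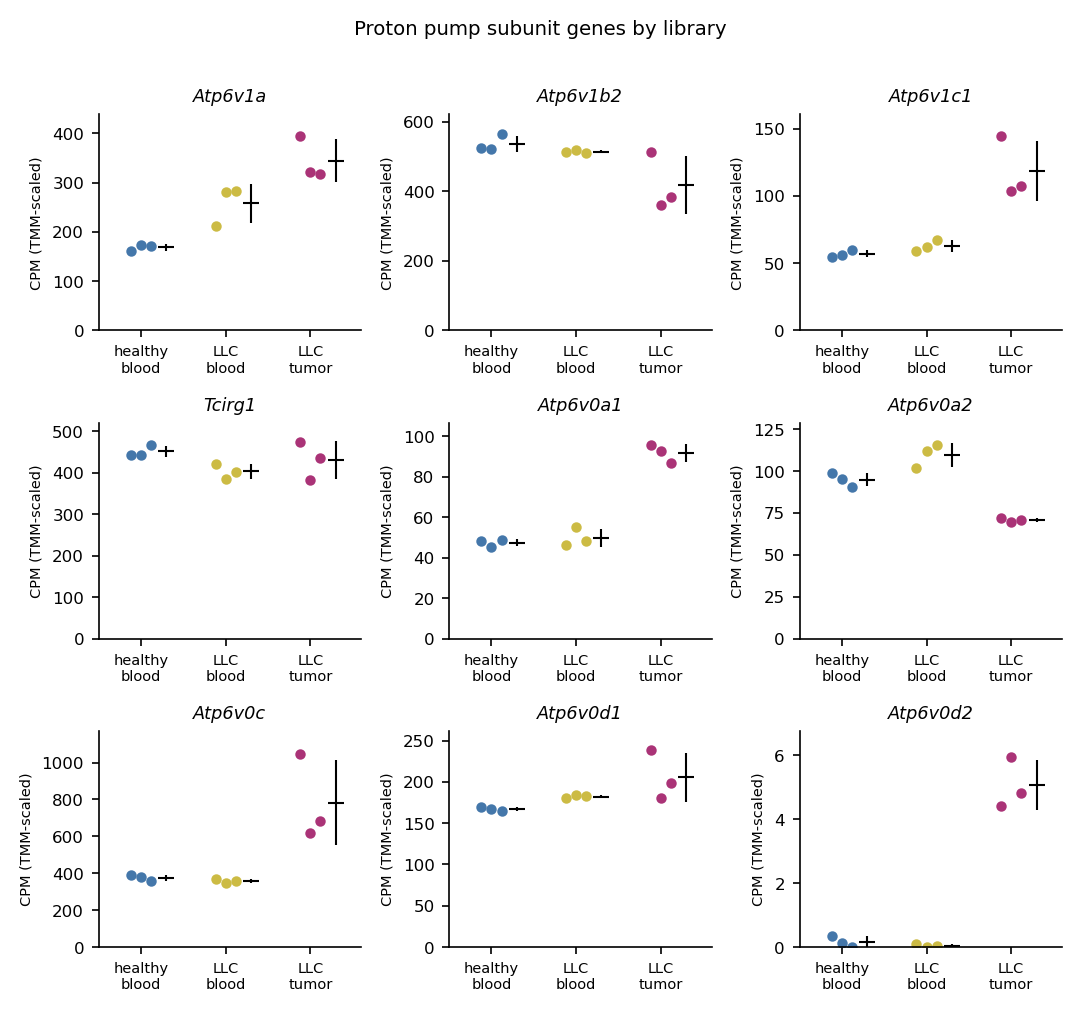
Level in CPM scaled by TMM (y axis, from 0) of 9 proton pump genes in each library (points) by group (x axis), with the mean (bar) and SD (line) of 3 libraries. Atp6v0a1 is higher and Atp6v0a2 lower in every tumor library than in every blood library, Tcirg1 overlaps between LLC tumor and each blood group, and Atp6v0d2 is near 0 in blood.

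In the V0 part 3 of 9 tested genes rose and 1 fell in LLC tumor against LLC blood, beside 29.6% and 31.7% of all genes. The forms of subunit a moved apart. Subunit a holds the proton path and comes in forms encoded by Atp6v0a1, Atp6v0a2 and Tcirg1 (a3, known from osteoclasts and from lysosomes of macrophages). Atp6v0a1 was at 48.0, 45.4 and 48.6 CPM (healthy blood), 46.2, 54.9 and 48.3 CPM (LLC blood) and 95.4, 92.8 and 86.5 CPM (LLC tumor). It rose by a log2 fold change of 0.88 ± 0.08 (SE; adjusted p = 1.91e-05). Atp6v0a2 was at 98.8, 95.3 and 90.7 CPM (healthy blood), 102, 112 and 116 CPM (LLC blood) and 71.7, 69.6 and 70.8 CPM (LLC tumor), and its log2 fold change was -0.64 ± 0.07 (SE; adjusted p = 4.82e-05). Tcirg1 was at 443, 443 and 467 CPM (healthy blood), 421, 385 and 402 CPM (LLC blood) and 474, 382 and 434 CPM (LLC tumor) and was not called in any comparison. LLC tumor stood at a log2 fold change against LLC blood of 0.10 ± 0.09 (SE; adjusted p = 0.4). Of the reads of these 3 genes, Atp6v0a1 took 7.78% to 8.13% in healthy blood, 8.12% to 9.94% in LLC blood and 14.6% to 17.1% in LLC tumor. The Atp6v0a2 share was 15.0% to 16.7%, 17.9% to 20.4% and 11.2% to 12.8% in the same order, and Tcirg1 kept 69.8% to 77.0% over all libraries. Such shares do not depend on how libraries are scaled.

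Atp6v0c, the proteolipid that forms the rotating ring, was at 392, 378 and 359 CPM (healthy blood), 372, 347 and 357 CPM (LLC blood) and 1049, 618 and 682 CPM (LLC tumor). Its log2 fold change was 1.13 ± 0.18 (SE; adjusted p = 0.000419), and 0.88 without LLC tumor 1, all tumor libraries lying above all blood libraries. Its counts were not whole numbers in 5 libraries, and a pseudogene, Atp6v0c-ps2, is listed beside it with at most 38 counts in any library and no call, so its level is uncertain where reads were split between copies. Atp6v0b, the other proteolipid, had 236, 221 and 235 CPM (healthy blood), 191, 167 and 182 CPM (LLC blood) and 199, 147 and 152 CPM (LLC tumor). In LLC tumor against healthy blood it had a log2 fold change of -0.48 ± 0.12 (SE; adjusted p = 0.00513), and against LLC blood it was not called (-0.12, adjusted p = 0.395). It was called lower than in LLC blood as well when LLC tumor 1 was left out, at -0.24 (adjusted p = 0.0204).

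Subunit d couples the rotor to the ring and has a common form, Atp6v0d1, and a form best known from osteoclasts and fused macrophages, Atp6v0d2. Atp6v0d2 had 39, 67 and 54 counts in the tumor libraries, 1, 0 and 1 in LLC blood and 5, 2 and 0 in healthy blood. LLC blood was at or under the floor of 3 counts per library, so the level in LLC tumor was at least 25.0-fold higher (adjusted p = 8.74e-05). LLC tumor 1, the highest tumor library for most members, was the lowest here. Of the reads of both d genes, Atp6v0d2 took 1.82% to 3.19% in LLC tumor and at most 0.203% in blood. Atp6v0d1 itself was at 170.2, 167 and 165 CPM (healthy blood), 179.9, 184 and 182 CPM (LLC blood) and 238, 181 and 198 CPM (LLC tumor). It was called higher only against healthy blood, at 0.30 ± 0.10 (SE; adjusted p = 0.0212), with 0.15 (adjusted p = 0.0341) without LLC tumor 1, and the call was lost without any 1 healthy blood library. Without LLC tumor 2 it was also called higher than in LLC blood, at 0.26 (adjusted p = 0.03). Of the 7 osteoclast markers, Calcr had 0 counts in all libraries; the list, which holds Atp6v0d2 and Acp5, summed to 138 to 174 CPM in LLC tumor and 28.1 to 49.6 CPM in blood. The part of osteoclast-type cells in this result was not tested. Atp6v0e was at 142, 154 and 164 CPM (healthy blood), 133, 122 and 129 CPM (LLC blood) and 191, 106 and 119 CPM (LLC tumor) and was not called; without LLC tumor 1 it was called lower than in healthy blood, at -0.47 (adjusted p = 0.00055) against -0.15 with it.

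**Figure D5:**
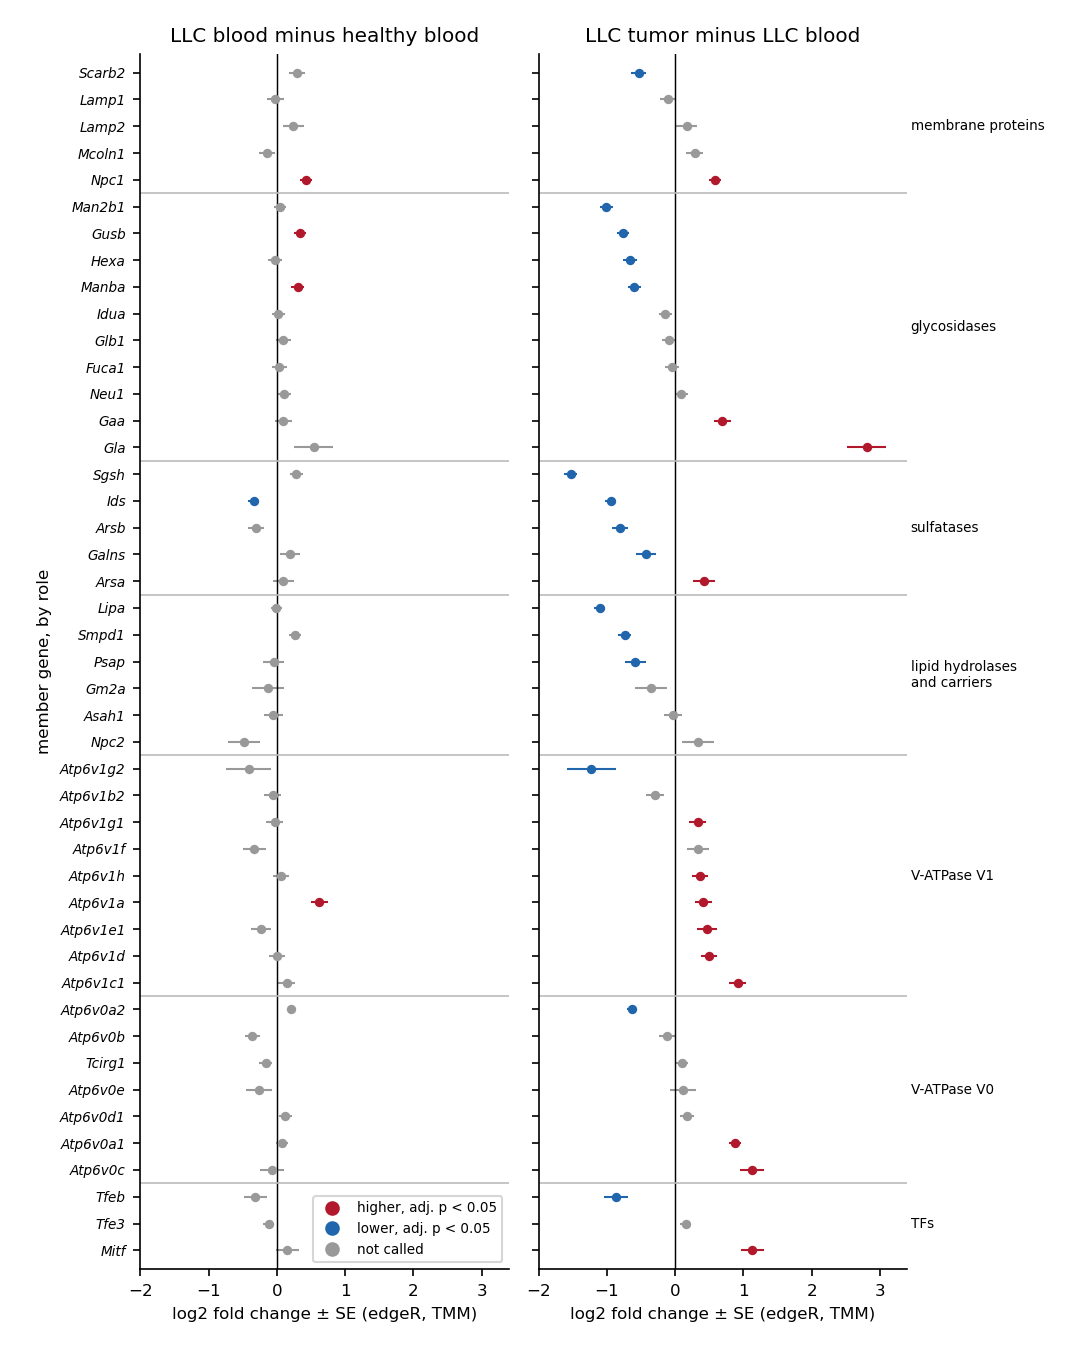
Log2 fold change with SE (x axis) of 45 tested members (y axis, by role) for LLC blood against healthy blood (left) and LLC tumor against LLC blood (right), red for higher and blue for lower at adjusted p under 0.05 and grey for not called. On the left 5 points are coloured; on the right the sulfatase and lipid rows are mostly blue and the V1 rows mostly red. Atp6v0d2, whose fold is a bound, and the pseudogene Atp6v0c-ps2 are left out.

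The 3 transcription factor genes went 3 ways in LLC tumor. Tfeb was at 96.6, 89.0 and 111 CPM (healthy blood), 93.2, 74.5 and 70.7 CPM (LLC blood) and 55.1, 34.6 and 41.3 CPM (LLC tumor). It fell by 0.86 ± 0.17 on the log2 scale against LLC blood (adjusted p = 0.00192), and every tumor library was below every blood library. Tfe3 was at 126, 121 and 117 CPM (healthy blood), 121, 109 and 105 CPM (LLC blood) and 137, 116 and 119.6 CPM (LLC tumor) and was not called in any comparison. Mitf was at 17.5, 19.2 and 18.9 CPM (healthy blood), 20.5, 22.0 and 19.6 CPM (LLC blood) and 59.3, 40.1 and 36.6 CPM (LLC tumor), and rose by a log2 fold change of 1.13 ± 0.17 (SE; adjusted p = 0.000278), or 0.92 without LLC tumor 1. Mitf is also a gene of melanocytes, whose markers Mlana, Tyr and Dct had 0 CPM in every library. Pmel, the other melanocyte marker listed, was at 0.695 to 2.08 CPM in blood and 0.34 to 0.447 CPM in LLC tumor. Activity of these factors depends largely on their entry into the nucleus, which transcript levels do not measure.

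For LLC tumor against healthy blood, 8 of 18 V-ATPase genes were higher and 4 lower. Of 26 hydrolases, carriers and membrane proteins, 5 were higher and 10 lower. Over all genes tested 33.5% were higher and 33.0% lower. Among V1 genes 4 were higher and 2 lower, among V0 genes also 4 and 2, and among membrane proteins 2 and 0, while 3 of 5 sulfatases and 3 of 6 genes for lipid breakdown were lower. Without LLC tumor 1, 24 members were called lower and 13 higher, beside 36.8% and 36.4% of all genes. On library totals 23 were lower and 11 higher, beside 40.1% and 27.4% of all genes. Of the members that were called higher against LLC blood, 12 were also called higher against healthy blood, and Atp6v1e1 and Atp6v1g1 were not. Of those called lower, 13 of 15 were lower in both, and Galns and Scarb2 were not, although without LLC tumor 1 both were called, at -0.40 (adjusted p = 0.028) and -0.31 (adjusted p = 0.035). Gla showed a log2 fold change of 3.35 ± 0.30 (SE; adjusted p = 1.01e-05), Npc1 of 1.01 ± 0.09 (SE; adjusted p = 1.18e-05) and Atp6v1a of 1.04 ± 0.13 (SE; adjusted p = 8.71e-05). Ids (-1.29), Sgsh (-1.24), Tfeb (-1.18), Arsb (-1.12) and Lipa (-1.11) were lower. With all libraries, 14 tested members were called in none of the 3 comparisons.

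Other genes of the pathway were compared between LLC tumor and LLC blood, where 29.6% of all genes rose and 31.7% fell. Among 23 further lysosomal hydrolases and activators 9 rose and 9 fell; Acp2 and Acp5, acid phosphatases, rose by log2 fold changes of 1.22 ± 0.15 (adjusted p = 8.05e-05) and 1.15 ± 0.23 (adjusted p = 0.00176), and Smpdl3a had -1.35 ± 0.13 (adjusted p = 1.93e-05). Of 24 further lysosomal membrane and transport genes 7 rose and 9 fell, with Cd63, a tetraspanin, at 6.54 ± 0.37 (adjusted p = 8.03e-07). Cathepsins, the lysosomal proteases, had 6 of 13 higher and 1 lower, led by Ctsl at 4.23 ± 0.15 (adjusted p = 1.44e-07) and Lgmn at 2.74 ± 0.23 (adjusted p = 9.75e-06), with a median of 0.72.

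Genes that deliver hydrolases to the lysosome had 3 of 15 higher and 7 lower, beside 29.6% and 31.7% of all genes. Igf2r, the large mannose 6-phosphate receptor, rose by a log2 fold change of 5.88 ± 0.23 (adjusted p = 1.93e-07). Sort1, the sorting receptor sortilin, had -2.64 ± 0.13 (adjusted p = 5.06e-07), and Nagpa, the enzyme that uncovers the mannose 6-phosphate tag, -1.27 ± 0.08 (adjusted p = 1.28e-06). Igf2r and Sort1 therefore moved in opposite directions.

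Assembly and accessory genes of the V-ATPase had 5 of 12 higher and 5 lower in LLC tumor against LLC blood, beside 29.6% and 31.7% of all genes. Dmxl2, a subunit of the RAVE-type complex that joins V1 to V0, was already higher in LLC blood, with a log2 fold change of 1.82 ± 0.17 (adjusted p = 0.000183), and higher again in LLC tumor, at 0.83 ± 0.16 (adjusted p = 0.00157). Its partner Wdr7 rose in blood by 0.82 ± 0.11 (adjusted p = 0.00101) and was lower in LLC tumor than in LLC blood, at -0.78 ± 0.11 (adjusted p = 0.000207). Rogdi, a further part of that complex, had -1.56 ± 0.13 (adjusted p = 9.24e-06) in LLC tumor. In blood 3 of these 12 genes rose and 1 fell, beside 14.0% and 9.61% of all genes.

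Among 21 genes that control the TFEB family, mainly through the Rag GTPases, folliculin, MTORC1 and calcineurin, 6 rose and 5 fell in LLC tumor, beside 29.6% and 31.7% of all genes, and 4 rose and 3 fell in LLC blood, beside 14.0% and 9.61%. The list also held Tfec and Gpnmb, which do not control the family and were left out of these counts after their values were seen; with them 8 rose in LLC tumor and 6 in LLC blood. Tfec, the related factor of myeloid cells, rose in LLC blood by a log2 fold change of 1.06 ± 0.19 (adjusted p = 0.00412), and Fnip2, a partner of folliculin, by 0.89 ± 0.14 (adjusted p = 0.00278) in LLC blood and 1.74 ± 0.14 (adjusted p = 8.1e-06) in LLC tumor. Gpnmb, a known target of MITF that also stands in the macrophage marker list, rose by 3.78 ± 0.25 (adjusted p = 1.91e-06) in LLC tumor. Mlst8, a subunit of MTORC1, had -1.19 ± 0.13 (adjusted p = 5.06e-05).

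For LLC blood against healthy blood the call count of members depended on which libraries entered the fit. With LLC tumor 1 left out, 14 members were called, 5 higher and 9 lower, beside 17.0% and 22.4% of all genes. That library enters this comparison through the spread shared by the fit, the scaling and the filter on low counts. Their parts were not separated. The 9 that gained a call were Gla, Arsb, Npc2, Tcirg1, Tfeb, Atp6v0b, Atp6v0e, Atp6v1e1 and Atp6v1f. With only the 6 blood libraries 16 of 45 tested were called, 8 higher and 8 lower, beside 21.4% and 20.9% of all genes, and leaving out healthy blood 2, healthy blood 3, LLC blood 2 or LLC blood 3 left 2, beside 11.7% to 14.8% of all genes. Library totals and upper-quartile factors each gave 3 higher and 2 lower, beside 22.6% and 26.1% of all genes called. Called blood differences were small: Atp6v1a, at 0.62, had the largest log2 fold change among the 5 called members, and 0 reached 1 in absolute value.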

How the data were processed

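Per the labels' protocols, RNA of sorted cells was taken with TRIzol, made into TruSeq libraries and sequenced on a HiScanSQ. The submitters' processing notes name Trim Galore (0.6.4, 0.6.6 and 0.6.7), cutadapt 3.4, STAR 2.6.1d, Salmon 1.9.0, edgeR and the build mm10. They also name BWA 0.7.17-r1188 and Bowtie2 2.4.4, with no role given for each tool. The authors deposited a table of expected counts (estimated read counts per gene, not normalized), of which 8.56% to 9.73% per library were not whole, and a CPM table of 10693 genes, from which whole reads were recovered; 100% of its values came out whole (tolerance 0.01 reads) and equal to the rounded counts. The column heads carry the letters BM, read as blood monocyte because the titles say blood; the table does not decide between that and bone marrow. The other 22 of 31 samples were not analysed here. Of the entries with counts, 27 had been turned into dates and were kept as separate entries.

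Counts were rounded. edgeR 4.0.16 (R 4.3.3) was run as 1 quasi-likelihood fit of all 9 libraries with group as the only term, TMM factors and filterByExpr, which kept 12337 of 18544 genes with a count. P-values were adjusted by Benjamini-Hochberg over all genes tested within a comparison; every adjusted p in the text is of this kind. The SE is the absolute log2 fold change over the square root of F. The floor was 3 counts per library and covers counting error only. The steps were tested on simulated data. Alternatives used DESeq2 1.42.0, limma 3.58.1 (voom with quality weights), other scalings, filters and thresholds, and fewer libraries.

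The members and all gene lists were chosen with earlier results of these data known. Values per library are given for the 6 called members with the largest change each way and a mean of at least 20 CPM, for forms of 1 subunit at 1 CPM or more, for the highest member of each role, and for Tfeb, Tfe3, Mitf, Tcirg1, Lamp1 and Lamp2; Npc2, Arsa and Atp6v0b were added after their values were seen. From each further list at most 3 called genes are named. Sequences are from RefSeq. Motif letters were searched on both strands.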

Additional observations from a re-analysis of the deposited data

How the results depend on the processing

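For LLC blood against healthy blood the number of members called, 5 in the analysis reported, was the least stable: 2 at an adjusted p under 0.01 (2 higher, 0 lower), 0 when a log2 fold change of 1 or more in absolute value was also required (0 higher, 0 lower), 16 with only the 6 libraries compared (8 higher, 8 lower) and 19 with limma-voom and sample quality weights (10 higher, 9 lower). With LLC blood 1 and LLC tumor 1 both left out, a setting chosen after seeing the data, it was 19 (8 higher, 11 lower) and the members' median log2 fold change -0.041. The 1 member lower became 2 with DESeq2, upper-quartile factors, library totals, no filter on low counts and reads recovered from CPM. Leaving out 1 library at a time gave 2 to 14 members called, 1 to 6 higher, 0 to 9 lower and medians from -0.070 to 0.037. Under the limit of 1 on the log2 fold change, 400 of 12337 genes were higher in LLC blood and 369 lower. Counts in this section without a value for all genes beside them do not compare members with other genes.

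For LLC tumor against LLC blood, 9 members were higher at an adjusted p under 0.01. Under the limit of 1 on the log2 fold change 8 of 47 were called (4 higher, 4 lower), beside 2131 higher and 1407 lower of 12337 genes. Against healthy blood that limit left 13 of 47 (7 higher, 6 lower), beside 2426 higher and 1563 lower of 12337 genes. Members lower than in healthy blood numbered 23 on library totals, 25 with LLC blood 1 and LLC tumor 1 both left out, and 13 to 24 with 1 library left out. Atp6v1f against healthy blood, 0.00 and not called in the main analysis, was -0.27 without LLC tumor 1 and also -0.27 without LLC blood 1 as well, and reached 0.15 without LLC tumor 2. Calls lost in at least 1 setting that kept the 0.05 threshold and set no fold limit concerned 4 of 5 members in blood (all but Atp6v1a), 6 of 29 in LLC tumor against LLC blood (Arsa, Atp6v1a, Atp6v1e1, Atp6v1g1, Atp6v1h, Galns) and 5 of 29 against healthy blood (Lamp2, Arsa, Atp6v0d1, Atp6v1b2, Manba). The cause of these shifts was not tested.

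With the replicate number as a block, 2 members were lower in blood. The labels do not say that numbers pair libraries, and deviations of same-numbered libraries correlated from -0.14 to 0.29, not above 0.1 in every pair; not every library correlated best with its own number. Depth limits Atp6v0d2, Atp6v1g2 and the 6 members under the filter.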
